A study of Arabidopsis thaliana with 12 samples.

Results

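PUB18 (AT1G10560), PUB19 (AT1G60190), PUB22 (AT3G52450), PUB23 (AT2G35930) and PUB24 (AT3G11840) are 5 plant U-box ubiquitin ligase genes of Arabidopsis thaliana. They were chosen by locus identifier, from levels over the 4 groups that were already known, as 5 of the 24035 genes listed in any library. All 5 were listed in all 12 libraries and all 5 passed the filter on low counts. Because those levels chose them, their responses to dehydration are given as a description, with no test. The genotype comparisons were tested, but the levels already known covered both genotypes, so these tests are not independent of the choice.

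The 12 libraries of poly(A) RNA came from seedlings 10 days old, 3 libraries for each of 4 groups. Wild type (WT) and the cost1 mutant were each taken untreated, as controls, and after 6 h of dehydration on a petri dish. All were grown upright on plates of medium, and the title of the series links COST1 to growth, drought tolerance and autophagy. The labels do not give the allele of cost1, and do not say whether the libraries of a group came from separate plants or dishes, so the spread behind the p-values may be technical. Whole seedlings were sampled, so fewer cells of a type and less RNA per cell cannot be told apart.

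A U-box ligase binds a ubiquitin-charged conjugating enzyme through its U-box and passes ubiquitin to a target protein, which is often then degraded by the proteasome. PUB18 and PUB19 are close copies that act as negative regulators of abscisic acid (ABA) responses in guard cells and of drought tolerance. PUB22, PUB23 and PUB24 act together as negative regulators of pattern-triggered immunity, the response to conserved microbial molecules. PUB22 and PUB23 are also negative regulators of the drought response.

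The summed expected counts were 5884728 to 6223687 per library. The expected count of COST1, the gene the mutant is named for, was 148.07 to 216.08 in the WT libraries and 36.23 to 61.17 in the cost1 libraries, with no overlap. On the first principal component of log2 CPM (counts scaled to library size), which held 77.4% of the variance, cost1 control replicate 2 lay at −50.4 and the other 5 control libraries between −91.1 and −86.7. The dehydrated libraries lay between 60.1 and 114. Several of the fitted log2 values that this library moves are given with and without it. Group means, ratios of counts and the order by level include it. Leaf markers were abundant in every library, at a summed 16700 to 39700 CPM over 4 genes, and both flower markers summed to at most 1.12 CPM. The 5 guard cell markers summed to 145.0 to 150.0 CPM in WT control and 75.9 to 103.0 in WT dehydrated, against 103.0 to 155.0 and 69.3 to 109.0 in cost1. They did not all move together. MYB60, FAMA and GC1 were lower after dehydration in both genotypes. KAT1 was higher by log2 0.6 in WT and stood at 0.3 in cost1 (adjusted p 0.247 by edgeR). SLAC1 stood at 0.33 in WT and −0.19 in cost1. The 6 root markers summed to 55.5 to 67.2 and 35.5 to 47.7 CPM in WT and to 58.7 to 70.1 and 30.7 to 44.6 in cost1, and COBL9 was at 0 in WT control and EXPA7 in cost1 dehydrated. SCR and SHR were lower after dehydration in both genotypes. WOX5 was higher, by log2 4.27 in WT and 3.57 in cost1, from control means of 0.259 and 0.212 CPM. The 3 seed markers summed to 3.03 to 186.0 CPM in cost1 control and to at most 19.7 in the other groups. The part of such shifts in the results was not tested.

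The start regions of PUB19, PUB22 and PUB23 are shown because PUB19 had the largest change of the 5 genes and because PUB22 and PUB23, which have similar proteins, differed in level after dehydration. Each sequence runs from 250 bases before the annotated gene start to 50 bases after it, 5′ to 3′ on the gene's strand, from the RefSeq TAIR10.1 assembly. Its nuclear chromosomes hold the TAIR10 sequence named in the submitters' processing notes. PUB19 lies on the plus strand (chr1:22198016-22198315), PUB22 on the minus strand (chr3:19442378-19442677) and PUB23 on the minus strand (chr2:15084510-15084809). Capitals mark ACGTG on either strand, the core of the ABA-responsive element (ABRE) that ABA-activated bZIP factors bind.
PUB19: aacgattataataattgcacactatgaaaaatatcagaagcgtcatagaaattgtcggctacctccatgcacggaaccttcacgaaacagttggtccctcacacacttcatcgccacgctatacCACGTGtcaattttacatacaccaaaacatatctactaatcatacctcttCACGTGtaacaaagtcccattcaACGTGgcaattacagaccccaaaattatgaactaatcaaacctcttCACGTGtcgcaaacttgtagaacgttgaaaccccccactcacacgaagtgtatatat
PUB22: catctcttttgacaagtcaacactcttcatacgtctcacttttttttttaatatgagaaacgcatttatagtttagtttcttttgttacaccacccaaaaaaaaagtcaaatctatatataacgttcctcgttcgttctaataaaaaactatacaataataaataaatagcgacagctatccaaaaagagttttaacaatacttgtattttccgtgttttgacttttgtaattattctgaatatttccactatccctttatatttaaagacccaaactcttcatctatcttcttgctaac
PUB23: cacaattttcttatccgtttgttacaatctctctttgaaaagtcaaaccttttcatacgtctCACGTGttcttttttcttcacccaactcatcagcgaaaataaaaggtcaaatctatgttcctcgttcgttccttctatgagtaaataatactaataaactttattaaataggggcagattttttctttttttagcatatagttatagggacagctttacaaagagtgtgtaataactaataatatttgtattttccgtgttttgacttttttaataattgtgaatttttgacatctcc

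The PUB19 window held ACGTG at 4 places, 3 of them within the palindrome CACGTG, the G-box. Of 27443 start windows of the same length, 0.324% held ACGTG at 4 or more places and 26.7% held it at 1 or more. A G-box at 3 or more places was found in 0.106% of windows and at 1 or more in 7.68%. PUB18 held 3 places (3 or more in 1.41% of windows) and PUB24 held 2 (2 or more in 6.19%). PUB23 held 1 and PUB22 held 0. The W-box core TTGAC, which WRKY factors bind, was found at 4 places in PUB22 and at 4 in PUB23, against 4 or more in 1.11% of windows. PUB19 and PUB24 each held 1 W-box core and PUB18 held 0. The core CCGAC of the dehydration-responsive element was found at 1 place in PUB18 and at 1 in PUB19, and in 15% of all windows. CATGTG, a core that NAC factors bind, was found at 1 place in PUB18 and at 1 in PUB24, and in 12.9% of windows. CAATNATTG, bound by class I HD-Zip factors, was found in none of the 5 windows and in 1.07% of all. The search covered both strands, and every G-box also counts as an ACGTG place. The window of PUB24 is set at its first codon, as its model has no untranslated bases, unlike the models of the other members. A match describes the letters of the window and does not show binding.

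**Figure D1:**
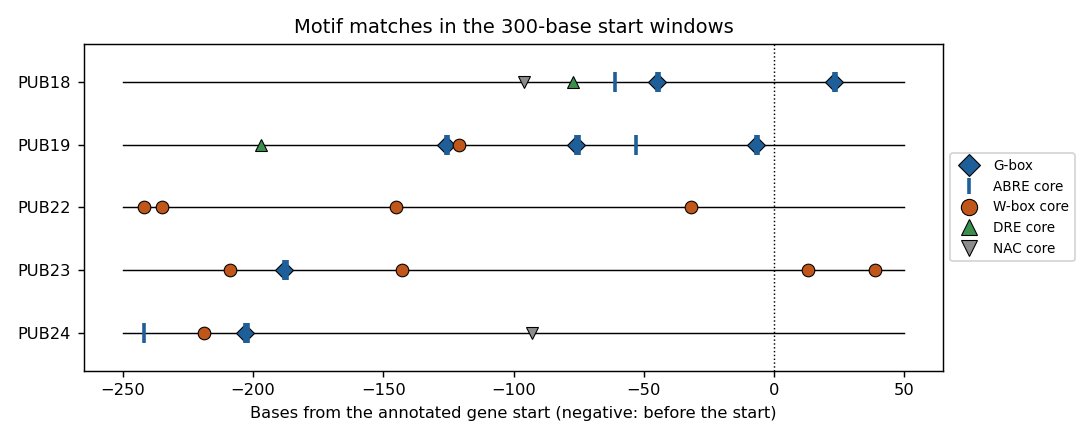
Positions of 5 motifs in the start windows of the 5 genes, in bases from the annotated gene start, with 1 line per gene and matches of either strand shown together. PUB19 carries 3 G-boxes and 4 ACGTG places, PUB22 carries 4 W-box cores and no ACGTG.

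PUB22 and PUB23 shared a run of 25 identical bases near their starts, from 48 to 24 bases before the start in PUB22 and across the start in PUB23. The longest run in any other pair of windows was 7 to 11 bases. Another run of 14 bases common to PUB22 and PUB23 is shown in capitals here because the G-box of PUB23 begins in its last letters. It is the longest shared run that overlaps this G-box. Apart from the 25 bases above, runs elsewhere in the windows were not listed, and it is not the next longest. In PUB22 the run lies 225 to 212 bases before the start, and in PUB23 199 to 186 bases before it.
PUB22: acactcTTCATACGTCTCACtttttt
PUB23: aaccttTTCATACGTCTCACgtgttc
After the shared run the letters of PUB23 complete CACGTG and those of PUB22 do not.

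The proteins, translated from the annotated coding sequences, had 697 residues in PUB18, 686 in PUB19, 435 in PUB22, 411 in PUB23 and 456 in PUB24. PUB18 and PUB19 were identical at 67.6% of aligned residues, and PUB22 and PUB23 at 81.5%. PUB24 shared 41.4% with PUB22 and 42.7% with PUB23. Pairs across these 2 sets shared 29.7% to 33.9%. All 60 expected counts of the 5 genes lay within 0.005 of a whole number, whereas 8.57% of all listed values did not. No fractional split between these copies is thus visible in the deposited values, which does not show that every read was placed on the right copy.

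PUB23 overlaps another gene. AT2G35935, an uncharacterised gene at chr2:15083353-15084340 on the plus strand, lies wholly inside PUB23, whose single exon is on the minus strand (chr2:15082855-15084559), and all 466 of its exon bases are shared. No label or header says whether counting used strand, so reads of the pair cannot be told apart where they overlap and the values of PUB23 are uncertain. AT2G35935 held 13.0% to 25.4% of the summed counts of the pair in the 12 libraries. No nuclear protein-coding gene overlapped PUB18, PUB19, PUB22 or PUB24. Non-coding genes were not searched for overlap. The model of PUB24 has 2 exons and no untranslated bases, so its 1371 bases are a coding length and its start window is set at the first codon, while the other 4 models have 1 exon and 361 to 503 untranslated bases.

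PUB19 showed the largest change, from nearly undetected in WT control to the highest level of the 5 after dehydration. Its expected counts were 2, 2 and 1 in WT control and 2332, 3140 and 2634 in WT dehydrated. In cost1 they were 14, 51 and 3 in control and 1807, 4154 and 3756 after dehydration. Every dehydrated library lay far above every control library, and the 3 cost1 control libraries spread more widely than those of WT. By FPKM, which is scaled to transcript length and depth, WT went from 0.11 ± 0.0346 (SD, n = 3) to 180.0 ± 28.4, and cost1 from 1.51 ± 1.64 to 216.0 ± 83.4. The ratio of normalised counts, dehydrated over control, was 1790 in WT with a 95% counting interval of 765 to 5500, and 158 in cost1 with an interval of 124 to 203. These intervals, here and for the genes below, cover counting error only. They come from counts summed over the libraries of a group and leave out the spread between libraries. The fitted log2 change was 10.69 (SE 0.84) in WT and 7.29 (SE 0.64) in cost1, ranks 3 and 37 of 18809 genes tested. PUB19 was chosen with these levels known, so the ranks are a description and not independent of the choice. Without cost1 control replicate 2 the log2 change in cost1 was 8.72. On the log2(FPKM + 1) scale the WT change was 7.34.

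PUB18, its close copy, went from a few counts to a level well below that of PUB19. Its expected counts in WT were 4, 4 and 3 in control and 68, 198 and 153 after dehydration. Those in cost1 were 4, 4 and 5, then 101, 243 and 200. The control and dehydrated libraries did not overlap in either genotype, and replicate 1 was the lowest dehydrated library of both genotypes, for PUB18 as for PUB19. The FPKM was 0.23 ± 0.0346 in WT control and 8.79 ± 4.2 in WT dehydrated, and 0.273 ± 0.0321 and 11.4 ± 4.55 in the 2 cost1 groups (SD, n = 3). The log2 change was 5.35 (SE 0.55) in WT and 5.5 (SE 0.53) in cost1, or 41.9-fold (95% counting interval 23.2 to 84.7) and 46.2-fold (26.8 to 87.3). On the log2(FPKM + 1) scale, which understates changes of low genes, these were 2.89 and 3.21.

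Between this pair the balance of transcripts moved to PUB19. In WT control PUB19 made up 34.2%, 34.2% and 26.9% of the FPKM summed over PUB18 and PUB19, and in WT dehydrated 97.3%, 94.4% and 94.8%. In cost1 control its share was 78.9%, 93.1% and 39.2%, and in cost1 dehydrated 94.8% to 95.2%. The WT groups did not overlap, and the cost1 control libraries lay between them with the widest spread. The control shares rest on 1 to 51 counts of PUB19 and 3 to 5 of PUB18 per library.

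PUB22 did not follow the other 4. WT had 50, 35 and 39 expected counts in control and 28, 28 and 41 after dehydration, and cost1 had 45, 12 and 37, then 55, 36 and 18. Control and dehydrated libraries overlapped in both genotypes. The log2 change was −0.21 (SE 0.44) in WT and 0.36 (SE 0.45) in cost1, and the ratio of normalised counts was 0.861 (95% counting interval 0.653 to 1.13) and 1.28 (0.963 to 1.71). Without cost1 control replicate 2, its lowest library, the change in cost1 was −0.01.

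PUB23 was higher after dehydration in both genotypes. WT had 26, 36 and 24 expected counts in control and 503, 252 and 567 after dehydration, and cost1 had 33, 47 and 43, then 612, 291 and 310. The groups did not overlap, and replicate 2 had the lowest count after dehydration in both genotypes, although in cost1 replicates 2 and 3 stood at 52.1 and 52.0 CPM. The log2 change was 4.08 (SE 0.38) in WT, 16.9-fold (95% counting interval 13.6 to 21.3), and 3.43 (SE 0.36) in cost1, 10.9-fold (9.04 to 13.2). With the counts of the overlapping AT2G35935 added, it was 4.18 and 3.54.

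PUB24, the more distant member of its set, had expected counts of 16, 14 and 15 in WT controls and 363, 248 and 476 after dehydration. The cost1 counts were 22, 33 and 14, then 586, 405 and 297. Every dehydrated library exceeded every control library. The log2 change was 4.72 (SE 0.38) in WT, 26.6-fold (95% counting interval 19.7 to 36.7), and 4.35 (SE 0.36) in cost1, 20.6-fold (16.2 to 26.7). Without cost1 control replicate 2 the change in cost1 was 4.73.

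**Figure D2:**
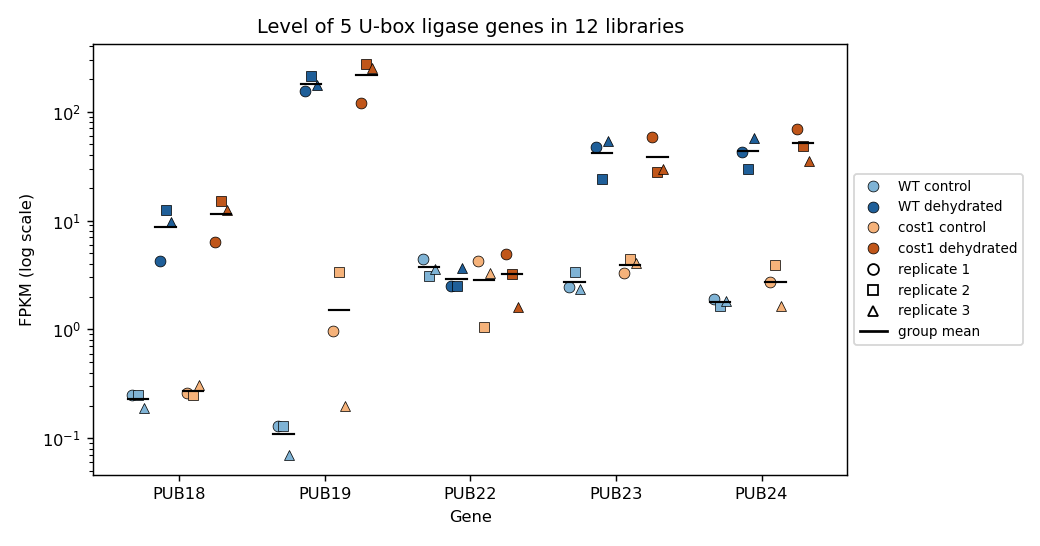
FPKM of the 5 genes in each of the 12 libraries on a log axis, with colours for the groups, marker shapes for the replicates and a line at each group mean. PUB19 goes from 0.07 to 0.13 in WT control to between 154 and 211 in WT dehydrated, while the 4 groups of PUB22 overlap.

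By FPKM the order in WT control was PUB22 (3.72), PUB23 (2.74), PUB24 (1.8), PUB18 (0.23) and PUB19 (0.11), with PUB22 and PUB23 overlapping and the other neighbours not. In WT dehydrated it was PUB19 (180.0), PUB24 (43.1), PUB23 (41.9), PUB18 (8.79) and PUB22 (2.9), with PUB24 and PUB23 overlapping. The order was the same after dehydration in cost1, at 216.0, 51.1, 38.5, 11.4 and 3.26, with the same single overlap. In cost1 control the order was PUB23, PUB22, PUB24, PUB19 and PUB18, and each neighbour overlapped the next.

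Within its set PUB22 held 50.6%, 38.1% and 46.1% of the FPKM summed over PUB22, PUB23 and PUB24 in WT control, and 2.68%, 4.48% and 3.21% in WT dehydrated. Its share in cost1 was 41.2%, 11.3% and 36.6% in control and 3.71%, 4.07% and 2.42% after dehydration. In the dehydrated libraries PUB23 and PUB24 held 47.1% ± 4.2 and 49.5% ± 3.25 in WT and 41.1% ± 5.26 and 55.5% ± 4.66 in cost1 (SD, n = 3). PUB18 and PUB19 together held 4.12%, 4.45% and 3.23% of the FPKM of all 5 genes in WT control and 63.0%, 79.8% and 61.8% in WT dehydrated. In cost1 they held 10.7%, 27.8% and 5.36%, then 48.8%, 78.7% and 79.8%.

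**Figure D3:**
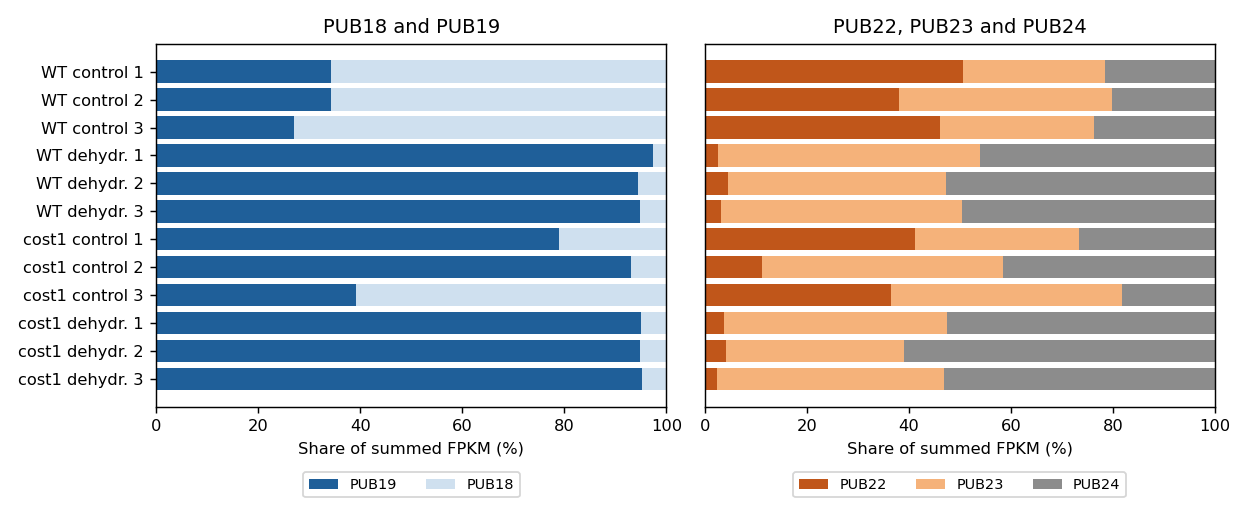
Share of summed FPKM, in percent, of PUB19 and PUB18 (left) and of PUB22, PUB23 and PUB24 (right), with 1 bar for each library. PUB19 holds at least 94.4% of its pair in the 6 dehydrated libraries, and PUB22 holds at most 4.48% of its set there.

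The genotype comparisons asked whether cost1 seedlings differed from WT in these genes. By edgeR's quasi-likelihood test with Benjamini-Hochberg adjustment over 18809 genes, 0 of the 5 members were called at an adjusted p under 0.05 in any of 4 genotype comparisons, and DESeq2 called 0. The background was also low: 0.0213% of genes were called in control, 0.0372% under dehydration, 0% for the interaction (the cost1 response less the WT response) and 0.0797% for the mean genotype difference. In the interaction edgeR passed 690 genes at an unadjusted p under 0.05, and DESeq2 called 1 gene at an adjusted p under 0.05. Among the members, PUB19 alone passed an unadjusted p of 0.05, in control, in the interaction and in the mean difference. PUB18 and PUB19 passed the filter on low counts through the dehydrated groups, and in a fit of the 2 control groups alone neither was kept, so their differences in control rest on counts too low for that filter and carry little weight.

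PUB19 was higher in cost1 control than in WT control in all 3 libraries, by a log2 difference of 3.67 (SE 1.06), with an adjusted p of 0.965 by edgeR. Without cost1 control replicate 2 it was 2.25 with an adjusted p of 1.0, and over all alternatives the adjusted p ranged from 0.215 to 1.0. On the log2(FPKM + 1) scale the difference was 0.97. The difference rests on 5 summed counts in WT and 68 in cost1, 51 of them in replicate 2. After dehydration the difference was 0.27 (SE 0.46, adjusted p 0.905 by edgeR) and the groups overlapped; it ranged from 0.01 to 0.56 over the alternatives. The interaction was −3.41 (SE 1.2), with an adjusted p of 0.999 by edgeR, and −1.99 without replicate 2. Its unadjusted p by edgeR was 0.0147, but 0.0823 without replicate 2. Over all alternatives the interaction ranged from −3.94 to −0.79. The mean difference was 1.97 (SE 0.59, adjusted p 0.393 by edgeR) and 1.25 without cost1 control replicate 2. It ranged from 0.58 to 2.24 over the alternatives.

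For the other 4 genes the difference in control was 0.23 (SE 0.88) in PUB18, −0.41 (SE 0.45) in PUB22, 0.51 (SE 0.41) in PUB23 and 0.61 (SE 0.45) in PUB24. Without cost1 control replicate 2 these were 0.26, −0.03, 0.38 and 0.24. Under dehydration it was 0.38 (SE 0.36), 0.16 (SE 0.45), −0.13 (SE 0.31) and 0.24 (SE 0.28) in the same order, and for PUB18 it ranged from 0.04 to 0.71 over the alternatives. The interval of 2 SE under dehydration ran from −0.33 to 1.09 in PUB18, −0.73 to 1.06 in PUB22, −0.75 to 0.48 in PUB23 and −0.33 to 0.81 in PUB24. For the interaction it ran from −1.91 to 2.21 in PUB18, −0.69 to 1.84 in PUB22, −1.67 to 0.38 in PUB23 and −1.43 to 0.69 in PUB24. The interaction was 0.57 in PUB22 and −0.37 in PUB24, and 0.19 and −0.01 without cost1 control replicate 2.

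**Figure D4:**
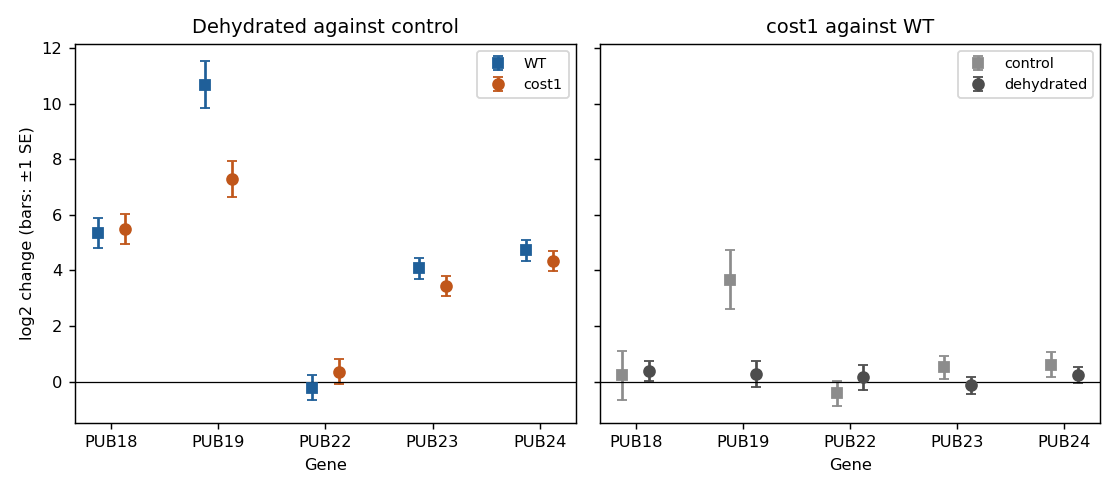
Fitted log2 change of the 5 genes, with bars of 1 SE, for dehydrated against control in WT and cost1 (left) and for cost1 against WT in control and dehydrated libraries (right). PUB19 has a log2 change of 10.69 in WT and 7.29 in cost1, and PUB22 lies near 0 in both.

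The genes whose pattern was closest to each member over the 12 libraries were found by the root mean square difference of centred log2 CPM. For PUB19 they were RD20, a caleosin-related gene, at 0.652, and DIP2, annotated as a ubiquitin ligase, at 0.792. Both had their highest control value in cost1 control replicate 2, as did PUB19. RD20 was at 61.5 CPM there against 1.9 to 6.22 in the other control libraries, and DIP2 at 2.71 against 0.158 to 0.475. RD20 and DIP2 were picked for closeness to PUB19 over the same libraries, so the shared peak is not independent of that choice. PUB18 was closest to A/N-InvC, a neutral invertase, at 0.272, and to AT5G17460, annotated as a subunit of glutamyl-tRNA(Gln) amidotransferase, at 0.286. PUB23 was closest to its overlapping gene AT2G35935, at 0.279, and then to UCP5, an uncoupling protein, at 0.283. PUB24 was closest to AT4G14370, a TIR-NBS-LRR gene, at 0.167, and to MLO6, of the MLO family, at 0.293. PUB22 was closest to AT1G30720, a berberine bridge enzyme-like gene, at 0.284, and to AT1G05020, an ENTH/ANTH/VHS domain gene, at 0.327. Among the members the closest pair was PUB23 and PUB24, at 0.511, whereas PUB18 and PUB19 were 2.211 apart.

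In the wider U-box family, 42 of 56 other loci passed the filter on low counts. In the WT response 21 rose and 2 fell by edgeR, with a median log2 change of 0.39. Of all genes tested, 24.9% rose and 20.6% fell in WT, and the median was −0.0176. In the cost1 response 21 rose and 3 fell, with a median of 0.69, against 26.4% and 24.5% of all genes and a median of −0.0348. AT5G67340 rose by 3.44 (SE 0.27, adjusted p 2.33e-06 by edgeR) in WT and 3.47 in cost1. AT5G57035 rose by 2.06 and 2.13, CMPG1 by 2.02 and 2.83, and CMPG2 by 1.9 and 1.97. The genes that fell were named because there were few of them. AT1G23030 fell in both, at −1.4 in WT and −1.21 in cost1, as did AT3G54790, at −0.84 and −1.15. AT5G40140 fell in cost1, at −1.02, and was at −0.42 in WT (adjusted p 0.205 by edgeR). No other U-box gene tested changed by as much as PUB23, PUB24, PUB18 or PUB19 in WT. In cost1 AT5G67340, at 3.47, changed slightly more than PUB23, at 3.43. The members were chosen with their levels known, so this ranking is not independent of the choice.

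**Figure D5:**
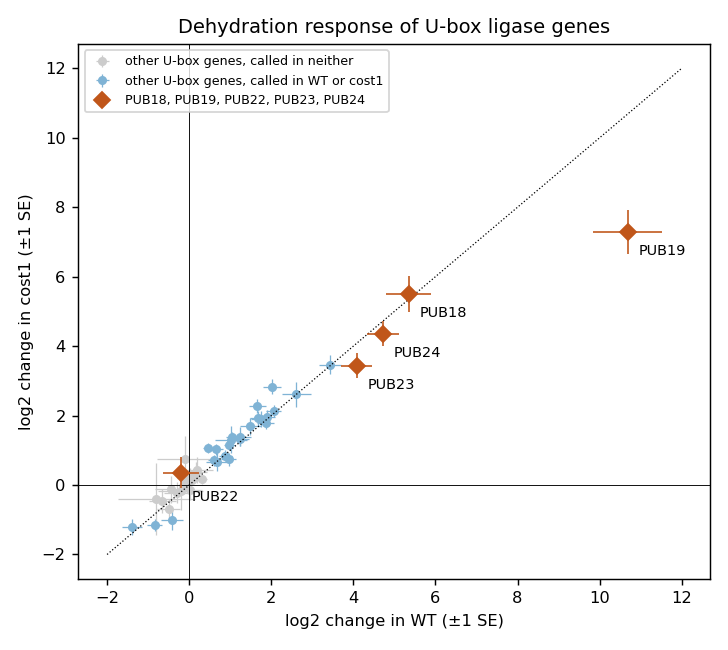
Log2 change on dehydration in WT (horizontal) and cost1 (vertical), with bars of 1 SE, for the 5 members and the 42 other U-box genes tested; the dotted line marks equal change. PUB19, at 10.69 and 7.29, lies below the line, and the highest of the other genes, AT5G67340, lies at 3.44 and 3.47.

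Of 7 partners and targets of these ligases, 3 rose in WT and 5 in cost1 and none fell. The median log2 changes were 0.81 and 1.11. Among all genes tested, 24.9% rose and 20.6% fell in WT, and 26.4% and 24.5% in cost1. EXO70B2, an exocyst subunit and a target of PUB22, rose by 3.35 (SE 0.19, adjusted p 2.86e-07 by edgeR) in WT and 3.17 in cost1, from 10.4 to 106.0 CPM in WT. RCAR1, the ABA receptor also called PYL9 and a target of PUB22 and PUB23, rose by 2.45 and 1.91. EXO70B1, a target of PUB18, rose by 0.87 and 1.13. RPN12a, a proteasome lid subunit that PUB22 and PUB23 ubiquitinate, was at 0.39 in WT (adjusted p 0.0796 by edgeR) and rose by 0.48 in cost1. MPK3, a kinase that phosphorylates PUB22, was at 0.81 in WT (adjusted p 0.0983 by edgeR) and rose by 1.11 in cost1. The conjugating enzymes UBC8 and UBC10 were not called in either. Apart from RCAR1, these genes are counted again in the lists below. EXO70B1 and EXO70B2 are among the EXO70 subunits and MPK3 among the immunity genes. RPN12a is among the proteasome subunits, and UBC8 and UBC10 are among the conjugation genes.

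Of 17 EXO70 subunits tested, of 23 listed loci, 8 rose in WT and 12 in cost1 and none fell, with medians of 0.64 and 0.58. EXO70H7 rose by 1.78 and 1.7, EXO70H4 by 2.85 and 1.91 and EXO70C2, from 0.37 CPM in WT control, by 4.13 and 3.97. Of 24 other ligases of drought and ABA responses tested, 8 rose and 3 fell in WT, and 9 rose and 3 fell in cost1. Their medians were 0.17 and 0.22. For both lists the shares over all genes were 24.9% risen and 20.6% fallen in WT. In cost1 they were 26.4% and 24.5%. AIRP2, a positive regulator of ABA responses, rose by 3.53 and 4.43, and AIRP1, from 0.671 CPM in WT control, by 2.63 and 3.07. RHA2A rose by 1.95 and 1.27 and AT1G67800 by 1.26 and 1.27. The 3 that fell in WT, named after their values were seen, were AT1G49230, RMA1 and RMA2, at log2 changes of −2.3, −2.15 and −1.26.

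Of 19 genes of pattern-triggered immunity tested, 11 rose and 4 fell in WT, and 14 rose and 3 fell in cost1. Their medians were 1.06 and 1.11. Over all genes tested, 24.9% rose and 20.6% fell in WT, and 26.4% and 24.5% in cost1. WRKY33, a defence transcription factor, rose by 3.84 and 4.55. CERK1, the chitin receptor kinase, rose by 1.83 and 1.74, and the co-receptor BAK1 by 1.32 and 1.4. YLS9, also called NHL10, rose by 6.86 and 5.7, from 0.413 CPM in WT control and 0.895 (SD 1.16) in cost1 control. The 4 that fell in WT, named after their values were seen, were PHI-1, WRKY29, WRKY22 and the flagellin receptor FLS2, at log2 changes of −3.91, −2.17, −1.98 and −0.72.

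Of 10 genes of ubiquitin activation and conjugation tested, 6 rose and 2 fell in WT and 6 rose and 1 fell in cost1. Their medians were 0.61 and 0.73. For these and the proteasome subunits below, the shares over all genes were 24.9% risen and 20.6% fallen in WT. In cost1 they were 26.4% and 24.5%. The polyubiquitin gene UBQ10 rose by 1.42 and 1.37, UBC30 by 1.06 and 1.41 and UBC9 by 0.81 and 0.82, and the activating enzyme gene UBA 2 fell, at −0.76 and −0.66. Of 14 proteasome subunits, 4 rose in WT and 7 in cost1 and none fell, with medians of 0.24 and 0.34. With total-count scaling 2 were called in WT and 4 in cost1. RPT1A rose by 0.62 and 0.67, RPT3 by 0.49 and 0.7, RPN10 by 0.48 and 0.56 and AT5G23540 by 0.48 and 0.55. Over the 7 lists edgeR called 0 of 127 genes in any genotype comparison and DESeq2 called 0, while 5 passed an unadjusted p of 0.05 in control, 7 under dehydration, 4 in the interaction and 11 in the mean difference. Over all 18809 genes these numbers were 893, 1637, 690 and 1851.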

How the data were processed

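Per the labels, poly(A) RNA of 12 seedling libraries was sequenced. Per the submitters' processing notes, the tools were STAR 2.4.0, HTSeq 0.6.0 and DESeq2, with the TAIR10 build; no options are given there. The deposited expected count of a gene is the authors' estimate of its reads, unscaled. The deposited FPKM was scaled by the authors to length and depth. An unlisted gene was read as 0.

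Expected counts were rounded and tested in edgeR 4.0.16 (R 4.3.3) with filterByExpr, TMM scaling and quasi-likelihood F tests in 1 fit of 12 libraries and 4 group terms. The Benjamini-Hochberg adjustment ran over 18809 genes, with calls made under an adjusted p-value of 0.05. Expected counts summed to 5884728 to 6223687 per library. Lists were described by counts and medians. The script was tested on simulated counts. Alternatives used RLE and total-count scaling, no filter, DESeq2 1.42.0, limma 3.58.1 on log2(FPKM + 0.1) and log2(FPKM + 1), a replicate block, 2 groups only and each library left out.

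The members and lists were chosen with earlier results of these data known. Named genes were the 5 members, up to 4 genes of each list with the smallest p in the WT response, the 2 genes nearest to each member in pattern, and U-box genes of a count of 5 or fewer. MPK3, UBC8, UBC10 and the falling genes of the drought and immunity lists were named after their values were seen. Same-numbered deviations of the cost1 control and dehydrated libraries correlated at 0.171, 0.381 and 0.177. Replicates 1 and 3 also correlated across numbers, at 0.164 and 0.14, so only replicate 2 stood apart. Under dehydration WT and cost1 correlated at 0.386 for replicate 1, and at 0.391 between WT replicate 2 and cost1 replicate 3. Replicate numbers were therefore not shown to pair the libraries. Names and sequences came from TAIR10.1. Lengths in the files equalled those of the annotation for all 11467 genes with 1 transcript in both. Proteins were aligned in Biopython 1.88 with BLOSUM62, gap open 10 and extension 0.5.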

Additional observations from a re-analysis of the deposited data

How the results depend on the processing

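Over all alternatives, 935 values or counts stayed within the limits set for them, 47 moved beyond them and 10 tested values changed sign. The cost1 response of PUB22, which has no test, also changed sign, to −0.01 without cost1 control replicate 2 and −0.05 without cost1 dehydrated replicate 1. No member was called in a genotype comparison under any of them. For the members, log2(FPKM + 1) gave 2.89 and 3.21 for PUB18 in WT and cost1, 7.34 for PUB19 in WT and 3.93 for PUB24 in WT, and log2(FPKM + 0.1) gave 9.75 for PUB19 in WT; a pseudocount shrinks changes from low levels by its construction. With 1 library left out, uncalled values changed sign and ranged from −0.19 to 0.48 for the interaction of PUB18. The difference under dehydration then ranged from −0.24 to 0.49 for PUB22, −0.54 to 0.11 for PUB23, −0.03 to 0.5 for PUB24, 0.04 to 0.71 for PUB18 and 0.01 to 0.56 for PUB19, and the mean difference from −0.33 to 0.06 for PUB22 and −0.02 to 0.31 for PUB23. Total-count scaling shifted the median of all genes to −0.164 in the WT response, where 42.8% of calls were then higher against 54.7%, and to −0.188 in cost1, with 40.9% against 51.9%. PUB18, PUB19, PUB23 and PUB24 were higher after dehydration under each scaling. In the fit of the 2 control groups alone PUB18 and PUB19 did not pass the filter and have no value.

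Genes called in control numbered 4, against 14 by DESeq2, 1 with the replicate block, 2 with 2 groups only and 1 to 7 with 1 library left out. Under dehydration 7 became 29 by DESeq2, 11 on log2(FPKM + 1), 2 with the replicate block, 0 with 2 groups only and 0 to 8 with 1 library left out (0 without WT dehydrated replicate 1 or 2 or cost1 dehydrated replicate 3). DESeq2 called 1 in the interaction against 0, and 86 in the mean difference against 15, which ranged from 9 to 20 with 1 library left out. Of the partners and targets, 6 were called in WT with 2 groups only and 3 to 5 with 1 library left out. In cost1 3 were called on log2(FPKM + 0.1), on log2(FPKM + 1) and with 2 groups only, and 3 to 5 with 1 library left out. Of the proteasome subunits, 2 were called in WT with total-count scaling and on log2(FPKM + 1), 7 with 2 groups only and 1 to 6 with 1 library left out (1 without WT dehydrated replicate 3). In cost1 4 were called with total-count scaling, on both FPKM scales and with 2 groups only, and 4 to 8 with 1 library left out (4 without cost1 dehydrated replicate 2). Apart from the pseudocounts, the cause was not tested. The replicate block changed no call of a member and moved each list count by at most 1. PUB19 had a difference in control of 3.58 with it against 3.67, and replicate numbers did not clearly pair all libraries of any comparison. Adding the AT2G35935 counts to PUB23 was chosen after seeing the data.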
